A study of Mus musculus with 15 samples.

Results

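The genes followed here encode the enzymes and transport proteins that burn pyruvate and fatty acids in mitochondria, in forelimb joints of mice with collagen-induced arthritis. They are 40 of the 26688 genes in the deposited count table, found by gene symbol, and all 40 were present and passed the filter on low counts. Messenger RNA came from male DBA/1 mice of wild-type genotype that were 8 weeks old when assigned, with 5 libraries in each of 3 groups: healthy mice that were never immunized, mice with collagen-induced arthritis (CIA), and CIA mice given F20 (CIA+F20). Arthritis was raised by a first and a booster injection of bovine type II collagen in complete or incomplete Freund's adjuvant, and mice with an arthritis index above 5 were divided at random between the CIA and CIA+F20 groups. F20 is a compound known here by its code name, taken orally, 10 mg/kg daily over 21 days. The vehicle of the CIA group and the hour of sacrifice were not stated in the labels. The forearm, wrist and paw were kept, most muscle and the skin were taken off, and capsule, synovium and nearby soft tissue remained. The labels do not tie each library to its own mouse, and p-values then reflect only the spread among libraries, which may be technical.

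Pyruvate from glycolysis enters the mitochondrial matrix and is turned into acetyl-CoA by the pyruvate dehydrogenase complex, which a family of pyruvate dehydrogenase kinases switches off by phosphorylation. The citrate cycle then oxidizes the acetyl group, and its dehydrogenases hand electrons to the respiratory chain. Fatty acids reach the matrix through membrane uptake, a cytosolic carrier and the carnitine shuttle, and beta-oxidation cuts them into acetyl-CoA in repeated rounds of dehydrogenation, hydration, oxidation and thiolysis. These enzymes are abundant in oxidative skeletal muscle and in heart.

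The libraries held 18627303 to 34247317 counted reads. Values are in CPM, counts per 1000000 reads after scaling of the library sizes. They are given as mean ± SD of 5 libraries or, where 5 values stand together, for libraries 1 to 5 of the group in that order. Log2 fold changes are given ± their standard error, and where a pair of them stands together the first is CIA versus healthy and the second CIA+F20 versus CIA. A gene was said to have risen or fallen where its adjusted p was under 0.05 in edgeR's quasi-likelihood test with Benjamini-Hochberg adjustment over the 15770 genes that passed the filter (edgeR adjusted p). Genes of muscle contraction took 6.96 to 13.7% of all counts in a library, although most muscle had been removed. Prg4, the lubricin gene of synovial lining and cartilage surface, had between 17.7 CPM (healthy 4) and 1242 CPM (CIA 1). Among 61 marker genes of 7 cell types, none was at 0 in all libraries; the adipocyte hormone gene Lep was at 0 in 2 of them and the globin gene Hba-a2 in 1. In bulk tissue, fewer cells of a type and less RNA per cell cannot be told apart.

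Nearly the whole set was lower in arthritic joints. In CIA versus healthy libraries 33 of the 40 genes fell, which is 82.5% of them, where 19.5% of all tested genes fell and 26% rose. The median log2 fold change of the 40 was −0.80, against 0.07 over all tested genes, and 39 of the 40 values were negative. No member rose by edgeR's quasi-likelihood test or by DESeq2, and 0 were higher at an unadjusted p under 0.05. For 22 of the 40 every CIA library lay under every healthy library, as was so for 12.5% of all tested genes. The 7 that did not pass were Pdk2, Pdk4, Suclg2, Cpt2, Acads, Echs1 and Etfb.

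In F20-treated arthritic joints the same enzymes stood at higher levels than in untreated arthritic joints. Of the 40 genes 35 rose in CIA+F20 versus CIA (87.5%), where 14.1% of all tested genes rose and 15.5% fell. The median log2 fold change of the 40 was 0.80, against −0.06 over all tested genes. None fell by edgeR's quasi-likelihood test, by DESeq2 or at an unadjusted p under 0.05. For 21 genes every CIA+F20 library lay above every CIA library, which held for 8.28% of all tested genes. Both comparisons use the same 5 CIA libraries, so values of CIA that are low by chance would enter both, and the values of each are given side by side. The heatmap of all 40 genes shows the CIA columns as a block of low values, deepest in CIA 2 and CIA 4 and shallowest in CIA 5.

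**Figure D1:**
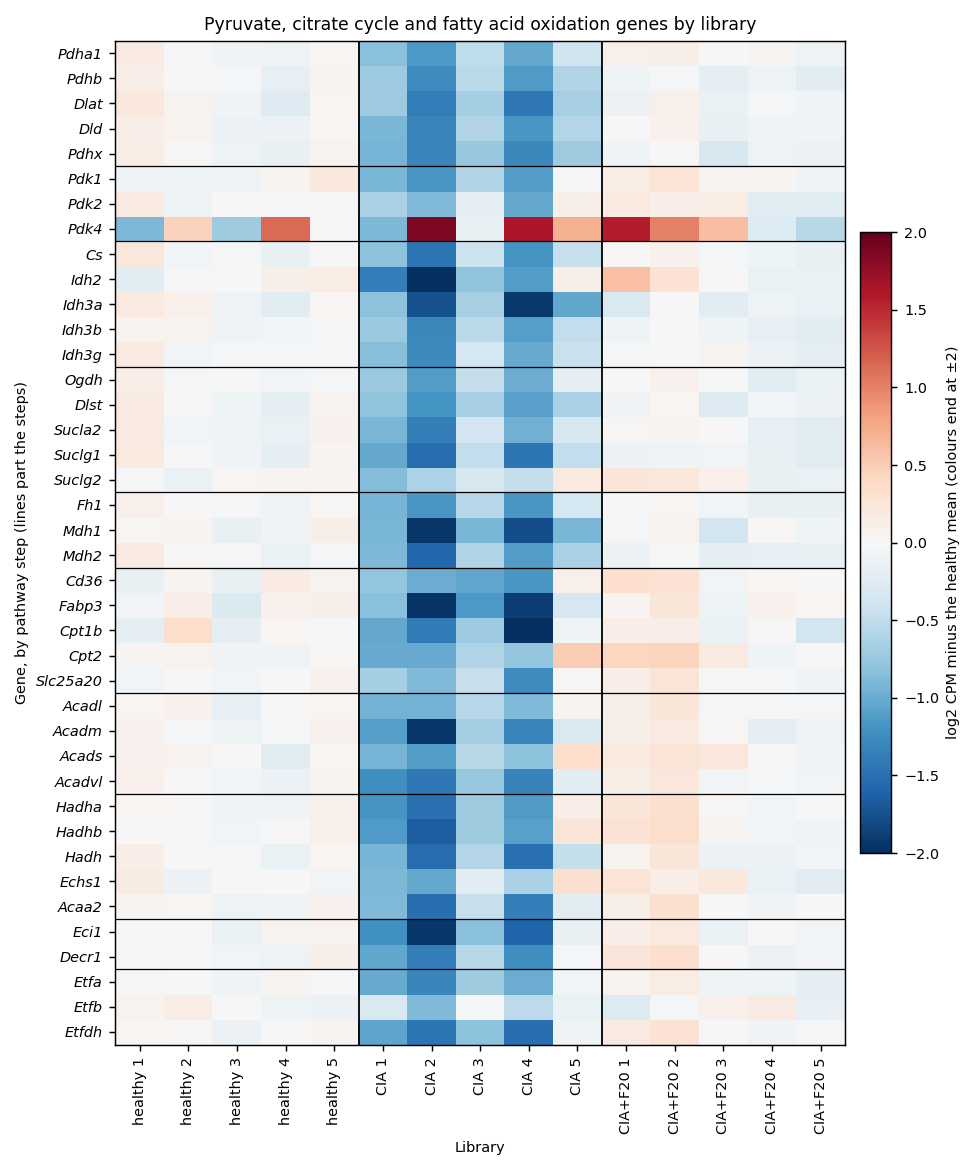
Log2 CPM of each of the 40 genes minus that gene's mean in the 5 healthy libraries, by library (columns) and pathway step (rows, parted by lines), with blue for lower and red for higher and colours that end at ±2. The median over the 40 genes was −0.91, −1.32, −0.60, −1.13 and −0.20 in CIA 1 to 5, and between −0.11 and 0.14 in the CIA+F20 libraries; Pdk4 had the highest coefficient of variation in CPM within each group.

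All 5 genes of the pyruvate dehydrogenase complex fell in CIA and all 5 rose with F20, and for each of them the CIA libraries overlapped neither other group. Pdhx encodes the protein that anchors the E3 subunit to the core of the complex (ENSMUSG00000010914, GRCm39 chromosome 2, 102851420 to 102903858). It had 143, 131, 120, 116 and 135 CPM in healthy, 67.5, 51.7, 76.1, 52.8 and 78.5 CPM in CIA and 121, 129, 103, 121 and 119 CPM in CIA+F20 libraries. The highest CIA value, 78.5 CPM, was under the lowest value of the other groups, 103 CPM. The log2 fold change was −0.98 ± 0.12 in CIA versus healthy (edgeR adjusted p = 0.000169) and 0.86 ± 0.12 in CIA+F20 versus CIA (edgeR adjusted p = 0.00206), the lowest p among the 40 in each comparison.

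Pdha1, the X-linked gene of the catalytic E1 alpha subunit and the site of the inhibitory phosphorylation (ENSMUSG00000031299, GRCm39 chromosome X, 158905205 to 158921409), had 898, 790, 768, 749 and 828 CPM in healthy, 453, 363, 565, 394 and 608 CPM in CIA and 860, 871, 807, 833 and 752 CPM in CIA+F20 libraries. The lowest library outside CIA exceeded the highest CIA library, with log2 fold changes of −0.76 ± 0.13 (edgeR adjusted p = 0.000701) and 0.79 ± 0.13 (edgeR adjusted p = 0.00276). Pdhb, the E1 beta subunit, had 396 ± 29.5 CPM in healthy joints, 224 ± 48.3 in CIA and 363 ± 20.2 in CIA+F20. Dlat, the E2 acetyltransferase that forms the core, had 322 ± 38.5 CPM in healthy joints, 167 ± 42.6 in CIA and 310 ± 21.0 in CIA+F20. Dld, the E3 dihydrolipoamide dehydrogenase that this complex shares with the 2-oxoglutarate dehydrogenase complex, had 477 ± 38.7 CPM in healthy joints, 257 ± 56.8 in CIA and 463 ± 30.3 in CIA+F20. Their log2 fold changes lay between −0.95 and −0.82 in CIA versus healthy and between 0.70 and 0.89 in CIA+F20 versus CIA.

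The kinases that switch this complex off did not move as a group: 1 of 3 fell in CIA and 1 of 3 rose with F20, both times Pdk1. Pdk1 (ENSMUSG00000006494, GRCm39 chromosome 2, 71703568 to 71734202) had 140, 140, 141, 154 and 171 CPM in healthy, 79.3, 66.1, 97.9, 68.8 and 147 CPM in CIA and 166, 181, 155, 154 and 140 CPM in CIA+F20 libraries. CIA 5 reached the healthy range, and the other CIA libraries lay under all healthy and CIA+F20 libraries. Its log2 fold changes were −0.70 ± 0.18 (edgeR adjusted p = 0.00624) and 0.79 ± 0.18 (edgeR adjusted p = 0.00786). Pdk2, the most widely expressed of the kinases, had 532 ± 39.6 CPM in healthy joints, 386 ± 132 in CIA and 534 ± 79.4 in CIA+F20, with −0.47 ± 0.19 (edgeR adjusted p = 0.0561) and 0.47 ± 0.19 (edgeR adjusted p = 0.0705). Without CIA 5 both differences of Pdk2 passed (edgeR adjusted p = 0.00422 and 0.0065). Both also passed without CIA 3 and the first without CIA+F20 5, with edgeR adjusted p of at most 0.0434 and 0.0445.

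Pdk4, the kinase that fasting and glucocorticoids raise in muscle (ENSMUSG00000019577, GRCm39 chromosome 6, 5483351 to 5496309), varied widely inside every group. It had 416, 1078, 475, 1704 and 791 CPM in healthy, 418, 2849, 701, 2380 and 1269 CPM in CIA and 2321, 1559, 1201, 642 and 532 CPM in CIA+F20 libraries. The 3 groups overlapped throughout. In every group the coefficient of variation of Pdk4 was the highest of the 40 genes, at 58.9% in healthy joints, 69.3% in CIA and 58.3% in CIA+F20. Its log2 fold change of 0.77 ± 0.55 in CIA was the only positive value (edgeR adjusted p = 0.262), with a 95% interval from −0.40 to 1.94, and that in CIA+F20 versus CIA was −0.28 ± 0.54 (edgeR adjusted p = 0.71; −1.45 to 0.88). The intervals hold both falls and rises.

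**Figure D2:**
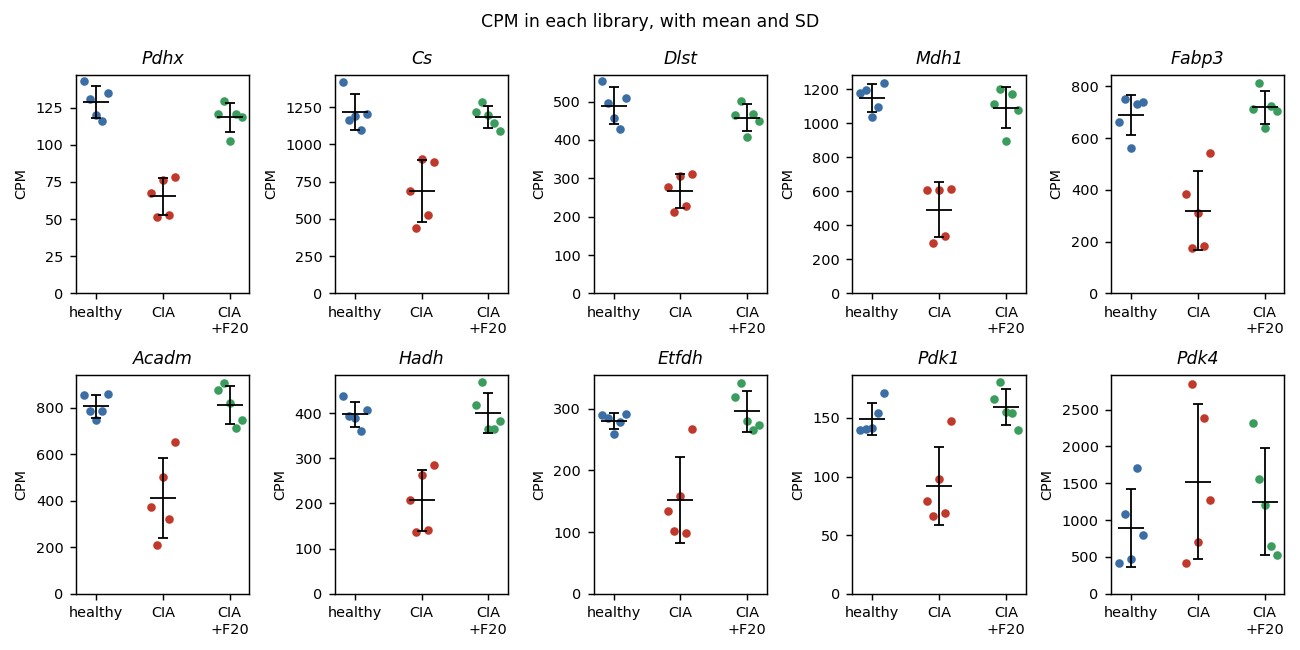
CPM of 10 genes in each of 15 libraries (points), with the mean (long bar) and SD (whiskers) of the 5 libraries of a group; each panel has its own linear axis from 0. Pdhx, Cs, Dlst and Mdh1 separate CIA from both other groups, 1 CIA library of Pdk1 and of Etfdh lies at or near the other groups, and Pdk4 is scattered in all groups.

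From citrate to 2-oxoglutarate, 5 of 5 genes fell in CIA and 5 of 5 rose with F20, and 4 of the 5 had no overlap in either comparison. Cs, citrate synthase, joins acetyl-CoA to oxaloacetate (ENSMUSG00000005683, GRCm39 chromosome 10, 128173603 to 128198348) and had 1421, 1168, 1190, 1099 and 1206 CPM in healthy, 686, 439, 899, 527 and 885 CPM in CIA and 1220, 1286, 1195, 1145 and 1088 CPM in CIA+F20 libraries. The lowest value outside CIA, 1088 CPM, was above the highest CIA value, 899 CPM. The log2 fold changes were −0.82 ± 0.17 (edgeR adjusted p = 0.00193) and 0.79 ± 0.17 (edgeR adjusted p = 0.00676). Idh3b, a subunit of the NAD-dependent isocitrate dehydrogenase of the cycle, had 612, 611, 552, 562 and 576 CPM in healthy, 348, 238, 399, 272 and 414 CPM in CIA and 549, 581, 548, 520 and 498 CPM in CIA+F20 libraries. Again the CIA libraries lay under all others, with −0.80 ± 0.13 (edgeR adjusted p = 0.000565) and 0.69 ± 0.13 (edgeR adjusted p = 0.00413).

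The catalytic subunit Idh3a of the same enzyme had 889 ± 98.3 CPM in healthy joints, 398 ± 144 in CIA and 798 ± 63.2 in CIA+F20, a larger difference of −1.16 ± 0.21 and 1.00 ± 0.20. The subunit Idh3g had 443 ± 30.9 CPM in healthy joints, 264 ± 69.5 in CIA and 425 ± 28.4 in CIA+F20, with −0.75 ± 0.15 and 0.69 ± 0.15. Idh2, the NADP-dependent enzyme of the matrix that supplies NADPH, had 710 ± 70.6 CPM in healthy joints, 388 ± 227 in CIA and 786 ± 183 in CIA+F20. Its CIA libraries were far apart, from 174 CPM in CIA 2 to 766 CPM in CIA 5, so the groups overlapped, with −0.87 ± 0.30 (edgeR adjusted p = 0.0269) and 1.02 ± 0.30 (edgeR adjusted p = 0.0219). The fall of Idh2 lost its call when CIA 1, CIA 2, CIA 4 or healthy 5 was left out (edgeR adjusted p from 0.0513 to 0.0626), and the rise without CIA+F20 1 (edgeR adjusted p = 0.0562).

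From 2-oxoglutarate to succinate, 4 of 5 genes fell in CIA and 5 of 5 rose with F20. Dlst, the E2 succinyltransferase core of the 2-oxoglutarate dehydrogenase complex (ENSMUSG00000004789, GRCm39 chromosome 12, 85157607 to 85181619), had 554, 497, 457, 428 and 511 CPM in healthy, 278, 213, 306, 229 and 312 CPM in CIA and 465, 502, 407, 467 and 450 CPM in CIA+F20 libraries. CIA libraries lay under all others, with log2 fold changes of −0.87 ± 0.12 (edgeR adjusted p = 0.000239) and 0.78 ± 0.12 (edgeR adjusted p = 0.00222). Ogdh, the E1 subunit and a control point of the cycle (ENSMUSG00000020456, GRCm39 chromosome 11, 6241633 to 6306642), had 1443, 1277, 1310, 1264 and 1279 CPM in healthy, 787, 608, 939, 658 and 1151 CPM in CIA and 1306, 1395, 1306, 1133 and 1192 CPM in CIA+F20 libraries. CIA 5 was just above the lowest CIA+F20 library and under every healthy one, with −0.67 ± 0.15 (edgeR adjusted p = 0.003) and 0.61 ± 0.15 (edgeR adjusted p = 0.0107).

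Succinyl-CoA synthetase is built from the common subunit Suclg1 with either Sucla2, which makes ATP, or Suclg2, which makes GTP. Suclg1 had 333 ± 31.8 CPM in healthy joints, 175 ± 59.1 in CIA and 306 ± 14.7 in CIA+F20, with −0.93 ± 0.18 and 0.81 ± 0.18. Sucla2 had 793, 672, 666, 637 and 739 CPM in healthy, 372, 270, 539, 357 and 559 CPM in CIA and 713, 722, 692, 624 and 599 CPM in CIA+F20 libraries. All CIA values of Sucla2 were under all others, with −0.74 ± 0.17 (edgeR adjusted p = 0.00302) and 0.68 ± 0.17 (edgeR adjusted p = 0.0112). Suclg2 had 90.5, 83.6, 94.2, 95.6 and 95.1 CPM in healthy, 50.5, 59.2, 73.7, 66.0 and 105 CPM in CIA and 109, 106, 98.6, 82.7 and 83.4 CPM in CIA+F20 libraries. CIA 5 lay above every healthy library in Suclg2 and the other CIA libraries under all of them, with −0.37 ± 0.16 (edgeR adjusted p = 0.0626) and 0.44 ± 0.16 (edgeR adjusted p = 0.0477). The rise lost its call without any of 13 of the 15 libraries, all but CIA 5 and CIA+F20 5 (edgeR adjusted p from 0.0539 to 0.113), and the fall passed without CIA 5 or CIA+F20 5 (edgeR adjusted p = 0.00143 and 0.0481).

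From fumarate to oxaloacetate, 3 of 3 genes fell in CIA and 3 of 3 rose with F20, none with overlap. Mdh1, the cytosolic malate dehydrogenase of the malate-aspartate shuttle (ENSMUSG00000020321, GRCm39 chromosome 11, 21506692 to 21522367), had the largest fall of the 40 genes. It had 1179, 1199, 1039, 1097 and 1241 CPM in healthy, 608, 298, 609, 335 and 612 CPM in CIA and 1113, 1204, 895, 1172 and 1078 CPM in CIA+F20 libraries. The highest CIA library, 612 CPM, was well under the lowest of the other groups, 895 CPM, with −1.22 ± 0.19 (edgeR adjusted p = 0.000431) and 1.15 ± 0.19 (edgeR adjusted p = 0.00278). Mdh2, the mitochondrial enzyme of the cycle, had 1204 ± 95.4 CPM in healthy joints, 632 ± 160 in CIA and 1106 ± 59.2 in CIA+F20, with −0.93 ± 0.15 and 0.81 ± 0.15. Fh1, fumarate hydratase, had 378 ± 17.1 CPM in healthy joints, 217 ± 57.2 in CIA and 362 ± 21.8 in CIA+F20, with −0.80 ± 0.14 and 0.73 ± 0.14.

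**Figure D3:**
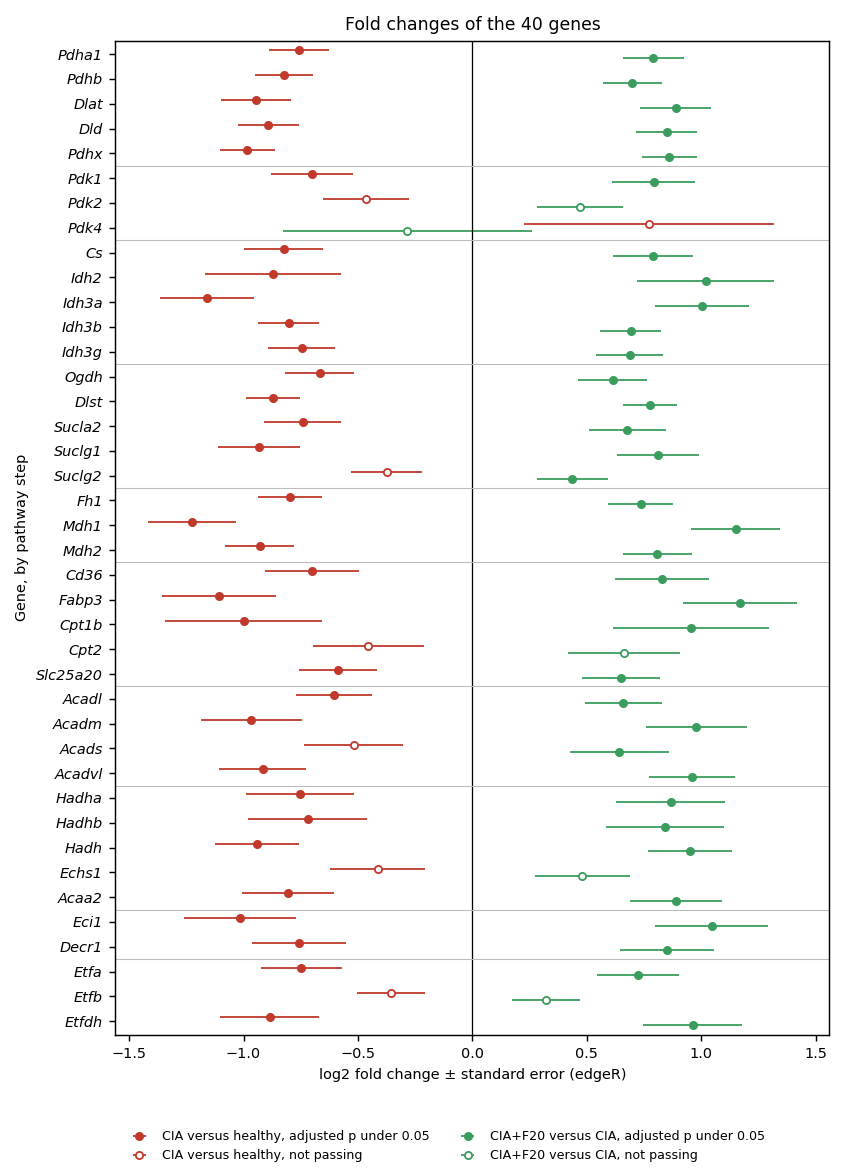
Log2 fold change of each of the 40 genes with its standard error from edgeR (x axis), in CIA versus healthy (red) and CIA+F20 versus CIA (green), by pathway step from top to bottom; filled points had an adjusted p under 0.05. The comparisons share the CIA libraries; Pdk4 is the gene whose values lie on the other side of 0, with the widest errors.

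In fatty acid uptake and the carnitine shuttle, 4 of 5 genes fell in CIA and 4 of 5 rose with F20. Fabp3, the fatty acid carrier protein of heart and muscle cytosol (ENSMUSG00000028773, GRCm39 chromosome 4, 130202388 to 130209256), had 661, 749, 563, 730 and 741 CPM in healthy, 385, 176, 310, 185 and 542 CPM in CIA and 712, 813, 640, 723 and 703 CPM in CIA+F20 libraries. CIA libraries lay under all others, with −1.11 ± 0.25 (edgeR adjusted p = 0.00286) and 1.17 ± 0.25 (edgeR adjusted p = 0.00613), the latter the largest rise of the 40. Cd36, the fatty acid translocase of muscle, adipocytes, endothelium and macrophages (ENSMUSG00000002944, GRCm39 chromosome 5, 17986688 to 18093799), had 626, 724, 628, 784 and 734 CPM in healthy, 404, 348, 340, 310 and 747 CPM in CIA and 882, 852, 668, 717 and 694 CPM in CIA+F20 libraries. Of the CIA libraries 4 lay between 310 and 404 CPM and CIA 5 within the healthy range, with −0.70 ± 0.20 (edgeR adjusted p = 0.0124) and 0.83 ± 0.21 (edgeR adjusted p = 0.0111).

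Cpt1b, the muscle form of the outer-membrane carnitine palmitoyltransferase that controls entry of long chains (ENSMUSG00000078937, GRCm39 chromosome 15, 89300608 to 89310066), had 6.27, 9.19, 6.34, 7.44 and 7.18 CPM in healthy, 3.50, 2.68, 4.34, 0.925 and 6.77 CPM in CIA and 7.92, 7.94, 6.58, 7.32 and 5.56 CPM in CIA+F20 libraries. CIA 4 was the lowest, on 25 reads, and CIA 5 lay among the healthy libraries. Its log2 fold changes were −1.0 ± 0.34 (edgeR adjusted p = 0.0275) and 0.95 ± 0.34 (edgeR adjusted p = 0.0478). The fall lost its call without healthy 2 or CIA 2 (edgeR adjusted p 0.0626 to 0.067), and the rise without any of 12 libraries, all but CIA 3, CIA 4 and CIA 5 (edgeR adjusted p from 0.0505 to 0.107). Slc25a20, the carnitine-acylcarnitine carrier of the inner membrane, had 92.7 ± 3.73 CPM in healthy joints, 61.7 ± 20.8 in CIA and 96.8 ± 9.44 in CIA+F20, with −0.59 ± 0.17 and 0.65 ± 0.17. Cpt2, the inner-membrane palmitoyltransferase, had 146 ± 7.07 CPM in healthy joints, 107 ± 57.4 in CIA and 169 ± 28.2 in CIA+F20, with −0.45 ± 0.24 (edgeR adjusted p = 0.139) and 0.66 ± 0.24 (edgeR adjusted p = 0.0532); without CIA 5 both differences of Cpt2 passed (edgeR adjusted p = 0.000175 and 0.000131).

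Of the 4 acyl-CoA dehydrogenases, which open each round of beta-oxidation on chains of different length, 3 fell in CIA and 4 rose with F20. Acadvl, for very long chains, had 296, 277, 268, 256 and 290 CPM in healthy, 118, 103, 163, 110 and 241 CPM in CIA and 300, 323, 268, 270 and 267 CPM in CIA+F20 libraries. Acadm, for medium chains (ENSMUSG00000062908, GRCm39 chromosome 3, 153627994 to 153650269), had 854, 786, 746, 786 and 859 CPM in healthy, 374, 210, 503, 323 and 654 CPM in CIA and 877, 907, 819, 714 and 747 CPM in CIA+F20 libraries. In both genes CIA 5 was the highest CIA library and still under every healthy and CIA+F20 library. The log2 fold changes of Acadvl were −0.92 ± 0.19 (edgeR adjusted p = 0.00178) and 0.96 ± 0.19 (edgeR adjusted p = 0.00451), and those of Acadm −0.97 ± 0.22 (edgeR adjusted p = 0.0032) and 0.98 ± 0.22 (edgeR adjusted p = 0.0076).

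Acadl, for long chains, had 659 ± 42.2 CPM in healthy joints, 433 ± 146 in CIA and 684 ± 59.0 in CIA+F20, with −0.61 ± 0.17 and 0.66 ± 0.17. Acads, for short chains, had 114 ± 8.93 CPM in healthy joints, 79.3 ± 37.5 in CIA and 124 ± 12.2 in CIA+F20, with −0.52 ± 0.22 (edgeR adjusted p = 0.0627) and 0.64 ± 0.22 (edgeR adjusted p = 0.038). The fall of Acads did not pass, and CIA 5 stood at 144 CPM where the other CIA libraries had 52.2 to 77.1 CPM; without CIA 5 the fall was −0.85 (edgeR adjusted p = 0.000108). The rise of Acads lost its call without any of CIA 1 to 4 or CIA+F20 1 to 4 (edgeR adjusted p from 0.0521 to 0.0909).

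Hydration, oxidation and thiolysis were encoded by 5 genes, of which 4 fell in CIA and 4 rose with F20. Hadh, the 3-hydroxyacyl-CoA dehydrogenase for medium and short chains (ENSMUSG00000027984, GRCm39 chromosome 3, 131027068 to 131065750), had 437, 394, 388, 361 and 407 CPM in healthy, 208, 137, 263, 140 and 286 CPM in CIA and 418, 468, 364, 364 and 383 CPM in CIA+F20 libraries. CIA libraries lay under all others, with −0.94 ± 0.18 (edgeR adjusted p = 0.00126) and 0.95 ± 0.18 (edgeR adjusted p = 0.00413). Acaa2, the thiolase that releases acetyl-CoA, had 309 ± 17.5 CPM in healthy joints, 177 ± 67.1 in CIA and 327 ± 36.2 in CIA+F20, also without overlap, with −0.80 ± 0.20 and 0.89 ± 0.20.

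Hadha and Hadhb encode the subunits of the mitochondrial trifunctional protein for long chains and lie head to head on chromosome 5. Hadha had 781 ± 45.0 CPM in healthy joints, 463 ± 233 in CIA and 844 ± 97.9 in CIA+F20, with −0.75 ± 0.24 (edgeR adjusted p = 0.0178) and 0.87 ± 0.24 (edgeR adjusted p = 0.0164). Hadhb had 707 ± 30.5 CPM in healthy joints, 429 ± 237 in CIA and 769 ± 105 in CIA+F20, with −0.72 ± 0.26 (edgeR adjusted p = 0.034) and 0.84 ± 0.26 (edgeR adjusted p = 0.027). In both genes 4 CIA libraries lay under every healthy library and CIA 5 lay above all of them. The fall of Hadhb lost its call without CIA 1, CIA 2 or CIA 4 and without any healthy library (edgeR adjusted p from 0.0507 to 0.0764), and the rise without CIA 1, CIA 2, CIA 4, CIA+F20 1 or CIA+F20 2 (edgeR adjusted p from 0.0567 to 0.0624). Echs1, the short-chain hydratase, had 197 ± 13.9 CPM in healthy joints, 148 ± 60.4 in CIA and 206 ± 30.9 in CIA+F20, with −0.41 ± 0.21 (edgeR adjusted p = 0.114) and 0.48 ± 0.21 (edgeR adjusted p = 0.0907); without CIA 5 both passed (edgeR adjusted p = 0.00269 and 0.0027).

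Both enzymes that let unsaturated chains into beta-oxidation fell in CIA and rose with F20. Eci1, the enoyl-CoA isomerase, had 152, 150, 137, 158 and 158 CPM in healthy, 65.1, 39.0, 84.1, 49.5 and 135 CPM in CIA and 164, 173, 137, 149 and 146 CPM in CIA+F20 libraries. CIA 5, at 135 CPM, lay just under the lowest healthy and CIA+F20 libraries, with −1.01 ± 0.25 (edgeR adjusted p = 0.00441) and 1.04 ± 0.25 (edgeR adjusted p = 0.00907). Decr1, the dienoyl-CoA reductase, had 195 ± 11.0 CPM in healthy joints, 115 ± 47.6 in CIA and 208 ± 28.6 in CIA+F20, with −0.76 ± 0.21 and 0.85 ± 0.21.

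The electron transfer flavoprotein carries electrons from the acyl-CoA dehydrogenases to ubiquinone, and 2 of its 3 genes fell in CIA and rose with F20. Etfa, the alpha subunit, had 310, 302, 285, 317 and 307 CPM in healthy, 150, 124, 185, 153 and 293 CPM in CIA and 320, 337, 286, 285 and 266 CPM in CIA+F20 libraries. CIA 5 lay within the healthy range and the other CIA libraries, at 185 CPM or less, under all others, with −0.75 ± 0.18 (edgeR adjusted p = 0.00403) and 0.72 ± 0.18 (edgeR adjusted p = 0.0108). Etfdh, the membrane oxidoreductase that passes the electrons on, had 281 ± 13.0 CPM in healthy joints, 152 ± 69.1 in CIA and 296 ± 33.1 in CIA+F20, with −0.89 ± 0.22 and 0.96 ± 0.22. Etfb, the beta subunit, had 10.3 ± 0.829 CPM in healthy joints, 8.06 ± 1.79 in CIA and 10.1 ± 1.31 in CIA+F20, with −0.36 ± 0.15 (edgeR adjusted p = 0.0613) and 0.32 ± 0.15 (edgeR adjusted p = 0.108). The fall of Etfb passed without CIA 3 or CIA 5 (edgeR adjusted p 0.024 to 0.0362) and the rise without CIA 3 (edgeR adjusted p = 0.045).

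CIA+F20 libraries were then compared with healthy ones, to see what was left of the difference after treatment. By edgeR's quasi-likelihood test 0 of the 40 genes passed, as did 0% of all 15770 tested genes. At an unadjusted p under 0.05 there were 1388 genes and 0 members, and DESeq2 called 124 genes and 0 members. The median log2 fold change of the 40 was 0.01. Without Pdk4 the other 39 lay between −0.16 (Idh3a) and 0.21 (Cpt2), and their 95% intervals reached from −0.76 (Cpt1b) to 0.78 (Idh2), so that each interval excluded a 2-fold difference. For 30 of the 40 the CIA+F20 mean lay within the range of the healthy libraries; it lay above that range for Idh2, Suclg2, Cpt2, Acads, Hadha, Hadhb, Acaa2 and Etfdh and below it for Idh3b and Idh3g. CIA+F20 1 and CIA+F20 2 each had 19 genes above the highest healthy library, and CIA+F20 5 had 18 below the lowest. No share of all tested genes is given beside these counts, so how unusual they are was not tested.

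The untreated arthritic group was the uneven one. The coefficient of variation of the CIA libraries exceeded that of both other groups for 40 of 40 genes, with a median of 34.0% in CIA against 7.21% in healthy and 9.63% in CIA+F20. This unevenness was not particular to the 40 genes. Over the whole table, pairs of CIA libraries differed by a chi-square per gene of 96.4 to 272. Pairs within the other groups differed by 26.1 to 42.1 (healthy) and 22.0 to 55.3 (CIA+F20). The fit shared 1 spread per gene among the 3 groups. Standard errors and p-values may thus be too small in comparisons with CIA and too large in CIA+F20 versus healthy. In fits of 2 groups 9 calls of members were lost. Among CIA coefficients, the median by step differed. This median was lowest for the pyruvate dehydrogenase complex, 22.1%, and highest for uptake and the carnitine shuttle, 47.6%. CIA 2 was the lowest of all 15 libraries for 29 genes and CIA 4 for 8. In CIA 1, 2, 3 and 4, 38 or 39 of the 40 genes lay under the lowest healthy library, and in CIA 5 this held for 23. The share of all tested genes under that limit in single libraries is not given.

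In CIA 5 the 2 arms of the pathway had different values. Of the 18 enzyme genes of pyruvate dehydrogenase and the citrate cycle 16 lay under the healthy range in that library, with a median log2 difference from the healthy mean of −0.49. Of the 19 genes of fatty acid uptake and oxidation 7 lay under the healthy range, 7 within it and 5 above it, with a median of −0.05. By step, CIA 5 ran from −0.65 for fumarate to oxaloacetate and −0.60 for the pyruvate dehydrogenase complex to 0.14 for hydration, oxidation and thiolysis. The other CIA libraries lay close to equal change, for example CIA 3 at −0.55 for the first arm and −0.68 for the second. This is a single library, and no test of the difference between the arms was made. The same library stood apart in markers of slow or oxidative fibres, with a mean log2 CPM of 9.59 over 7 genes against 6.19 to 6.75 in the other CIA libraries and 9.03 to 10.4 in healthy. Myh7, the slow myosin heavy chain, had 1547 CPM in CIA 5 and 26.8 to 59.4 CPM in the other CIA libraries. The part of these fibres in the values of CIA 5 was not tested. Without CIA 5 the median log2 fold change in CIA versus healthy was −1.02 for the 19 fatty acid genes, against −0.75 with all libraries. For the 18 enzyme genes of the other arm it was −0.94, against −0.85. CIA 5 was the least reduced CIA library, so lower medians without it follow from its choice.

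**Figure D4:**
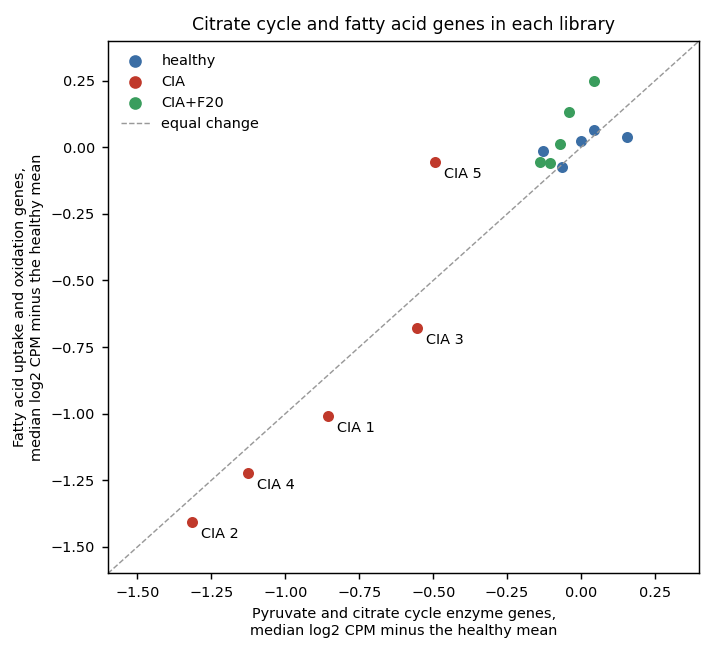
Median over 18 pyruvate dehydrogenase and citrate cycle enzyme genes (x axis) and over 19 fatty acid uptake and oxidation genes (y axis) of log2 CPM minus the healthy mean, 1 point per library; the dashed line marks equal change. CIA 5 lies above the line at −0.49 and −0.05, and the other 4 CIA libraries lie near it, from CIA 3 at −0.55 and −0.68 down to CIA 2 at −1.32 and −1.41.

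Part of the muscle markers moved with these genes. The 17 contractile genes took 11.6 to 13.1% of counts in healthy, 6.96 to 13.7% in CIA and 11.1 to 12.7% in CIA+F20 libraries. Among the 17, 10 fell in CIA (58.8%, median log2 fold change −0.63), where 19.5% of all tested genes fell. With F20 4 rose (23.5%) and 13 were not called, where 14.1% of all tested genes rose. Actn3 lay on the other side of 0 in both comparisons (0.16 ± 0.38 and −0.27 ± 0.38) and passed in neither. Tnnc2, which fell, had only 0.138 to 0.613 CPM. Ckm, the muscle creatine kinase, had 6195 ± 624 CPM in healthy joints, 3783 ± 1677 in CIA and 5728 ± 930 in CIA+F20. Acta1, skeletal actin, had 28035 ± 1506 CPM in healthy joints, 17340 ± 4433 in CIA and 25581 ± 3874 in CIA+F20. Both fell in CIA. With F20 the rise of Ckm did not pass (edgeR adjusted p = 0.0781) and that of Acta1 did (edgeR adjusted p = 0.0416). The 7 genes of slow or oxidative fibres took 0.950 to 1.29%, 0.226 to 0.881% and 0.870 to 1.29%, and 6 of the 7 fell in CIA (median −2.15) and 5 rose with F20. CIA 3 and CIA 5, in which the 40 genes were least reduced, had the highest contractile levels of the CIA libraries. On the scale used for the 40 genes, the mean log2 CPM of the 17 contractile genes was 11.6 in CIA 3, within the healthy range, and 11.5 in CIA 5, just under it, against 10.3 to 11.0 in CIA 1, 2 and 4 and 11.6 to 11.8 in healthy. As shares of all counts, which are not scaled, the contractile genes took 13.7% in CIA 3 and 13.2% in CIA 5, above the healthy range, and the 40 genes together took 1.42% and 1.80%, against 1.78 to 1.93% in healthy. In scaled values 38 and 23 of the 40 lay under every healthy library in CIA 3 and CIA 5. Transcripts of the mitochondrial genome took 16.6 to 19.0% of counts in healthy, 12.4 to 22.3% in CIA and 15.9 to 18.9% in CIA+F20 libraries.

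**Figure D5:**
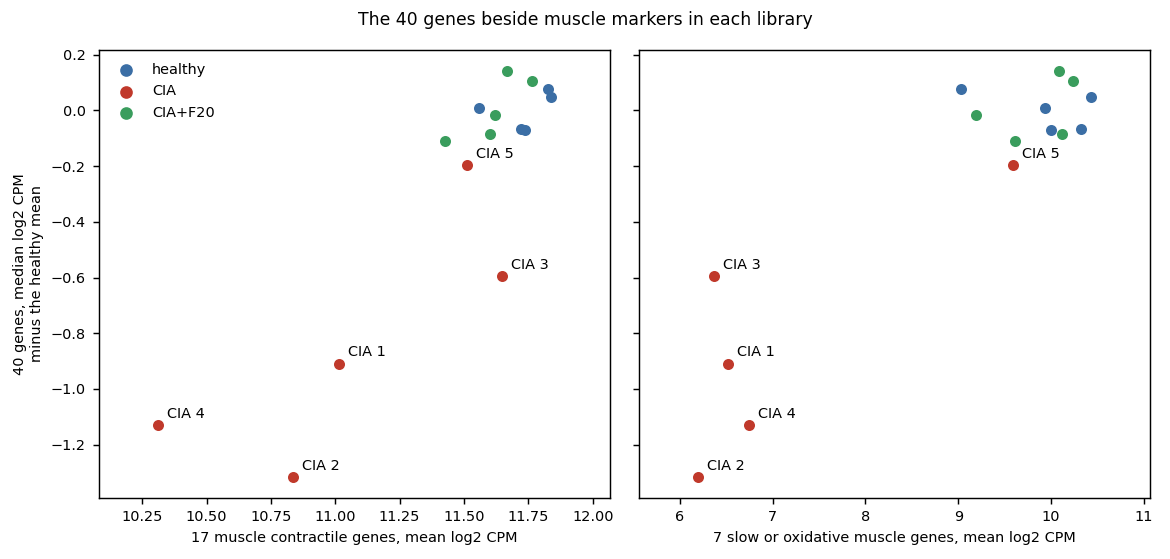
Median over the 40 genes of log2 CPM minus the healthy mean (y axis) against the mean log2 CPM of 17 contractile genes (left) and of 7 slow or oxidative muscle genes (right), 1 point per library, with the CIA libraries named. CIA 3 and CIA 5, at contractile levels of 11.6 and 11.5, lie at −0.60 and −0.20, and CIA 1, 2 and 4, at 10.3 to 11.0, lie between −0.91 and −1.32; on the right, CIA 5 is within the healthy range of the x axis and the other CIA libraries are under it.

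With the contractile score of each library, its mean log2 CPM of the 17 genes, as a covariate, 13 of the 40 genes fell in CIA, where 5.75% of all tested genes fell, and the median was −0.38. These were 12 of the 18 enzyme genes of pyruvate dehydrogenase and the citrate cycle, all 5 of the pyruvate dehydrogenase complex among them, and 1 of the 19 fatty acid genes, Hadh. In CIA+F20 versus CIA the same fit called 9 of the 40 higher, 8 of the 18 and 1 of the 19, where 1.44% of all tested genes rose. A further fit, chosen after seeing the data, left out CIA 1, CIA 2 and CIA 4, whose contractile share was under the healthy range. Only CIA 3 and CIA 5 then stood for the CIA group, so its own spread was hardly measured. In this fit 22 genes fell, 16 of the 18 and 6 of the 19, where 10.6% of all tested genes fell, and the median was −0.42. In CIA+F20 versus CIA 17 genes then rose, 14 of the 18 and 3 of the 19, where 3.1% of all tested genes rose. The contractile score holds none of the 7 slow or oxidative fibre genes, whose median log2 fold change in CIA versus healthy was −2.15. What part muscle or fibre type had in the remaining calls was not tested. Whether the arms differ in these counts was not tested either.

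Markers of other cells differed between the groups to unlike degrees. Of all tested genes 26% rose and 19.5% fell in CIA, and 14.1% rose and 15.5% fell with F20. All 8 macrophage genes rose in CIA and 6 fell with F20, and they took 0.00774 to 0.0297% of counts in healthy, 0.0469 to 0.137% in CIA and 0.0255 to 0.0456% in CIA+F20 libraries. Of 7 erythroid genes 6 rose in CIA and 0 were called with F20, with shares of 0.00669 to 0.0896%, 0.0253 to 0.329% and 0.0475 to 0.132%. Of 7 fibroblast and lining genes 1 rose in CIA (14.3%), under the share of all tested genes, and 0 were called with F20. By DESeq2 2 of them were called in each comparison. Their shares of counts were 0.0313 to 0.260%, 0.151 to 0.653% and 0.0936 to 0.212%. Of 7 endothelial genes 1 rose (14.3%) and 3 fell (42.9%) in CIA. With F20 1 rose (14.3%), near the share of all tested genes. Their shares of counts were 0.0376 to 0.0581%, 0.0304 to 0.0531% and 0.0369 to 0.0438%. No adipocyte gene of 8 was called by edgeR in either comparison (1 and 0 at an unadjusted p under 0.05, 1 and 0 by DESeq2), with shares of 0.0219 to 0.0432%, 0.0185 to 0.0364% and 0.0255 to 0.0340%. The part of these cells in the results was not tested.

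Ratios between 2 genes of one enzyme or step in a library do not depend on how libraries are scaled, and 10 such pairs were compared in all 3 comparisons. None of the 30 tests passed after adjustment by exact two-sided permutation of 5 against 5 libraries, whose smallest possible p is 0.00794; 9 had an unadjusted p under 0.05. Acadl/Acadvl had a log2 ratio of 1.58 ± 0.12 in CIA, 1.25 ± 0.09 in healthy and 1.26 ± 0.015 in CIA+F20 (SD, n = 5). The CIA libraries overlapped neither other group, with differences of 0.33 and −0.32 at the smallest p the exact test can give (0.00794, adjusted p = 0.0595). Mdh1/Mdh2 had −0.39 ± 0.23 in CIA, −0.06 ± 0.11 in healthy and −0.02 ± 0.14 in CIA+F20, with differences of −0.33 (exact permutation p = 0.0238, adjusted p = 0.119) and 0.37 (exact permutation p = 0.0159, adjusted p = 0.0954). Hadha/Hadhb, the subunits of the trifunctional protein, had a log2 ratio of 0.14 in all 3 groups, with SDs between 0.04 and 0.09. Pdha1/Pdhb was higher in all CIA+F20 libraries than in all healthy libraries, by 0.16 (exact permutation p = 0.00794, adjusted p = 0.0595). Pdk1/Pdk2 was higher in all CIA+F20 libraries than in all CIA libraries, by 0.33 (exact permutation p = 0.00794, adjusted p = 0.0595). Without CIA 5, 5 of the 30 tests passed, both of Acadl/Acadvl among them. A test at the smallest possible p passes or not by how many other tests have a low p too. Neither count of passes thus measures how strong the difference of any 1 pair was.

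Of 42 further genes of the same pathways, 15 fell (35.7%) and 4 rose (9.52%) in CIA. Among all tested genes 19.5% fell and 26% rose. With F20 17 of the 42 rose (40.5%) and 3 fell (7.14%), against 14.1% and 15.5% of all tested genes. The median log2 fold changes of the 42 were −0.26 and 0.39. Of the 18 among them in fatty acid oxidation, 4 fell in CIA (22.2%, median −0.19), near the share of all tested genes, and 1 rose. With F20 5 of these 18 rose (27.8%) and 1 fell. By edgeR 0 of the 42 passed in CIA+F20 versus healthy, 3 had an unadjusted p under 0.05 and DESeq2 called 0. The 4 subunit genes of succinate dehydrogenase, Sdha, Sdhb, Sdhc and Sdhd, fell by 0.76 to 1.01 on the log2 scale. Both subunits of the mitochondrial pyruvate carrier fell, Mpc1 (−0.58 ± 0.12, edgeR adjusted p = 0.00173) and Mpc2 (−1.08 ± 0.16, edgeR adjusted p = 0.000313), and both rose with F20 (0.56 ± 0.12 and 0.85 ± 0.16). Of the regulators of these enzymes, the nuclear receptor Ppara had 13.3 ± 1.89 CPM in healthy joints, 3.72 ± 2.86 in CIA and 14.3 ± 4.01 in CIA+F20, with −1.84 ± 0.39 (edgeR adjusted p = 0.00226) and 1.95 ± 0.40 (edgeR adjusted p = 0.00497). The coactivator Ppargc1a (−1.23 ± 0.41 and 1.17 ± 0.41) and the oestrogen-related receptor Esrra (−0.91 ± 0.19 and 0.81 ± 0.19) also fell in CIA and rose with F20. These were 3 of the 8 regulators listed (37.5%). Ppargc1b, Ppard, Pparg, Nrf1 and Rxra passed in neither comparison. Nrf1 had 0.14 ± 0.10 (edgeR adjusted p = 0.295) and −0.21 ± 0.10 (edgeR adjusted p = 0.137).

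The 4 further genes that rose in CIA were Cpt1a, Pdk3, Me2 and Idh1. Cpt1a, the carnitine palmitoyltransferase of liver and many other cells (ENSMUSG00000024900, GRCm39 chromosome 19, 3372334 to 3435733), had 10.0, 11.1, 9.93, 13.9 and 8.87 CPM in healthy, 37.1, 31.5, 25.4, 28.0 and 25.0 CPM in CIA and 17.7, 22.2, 14.7, 11.2 and 13.3 CPM in CIA+F20 libraries. Every CIA value exceeded every other value, with 1.45 ± 0.18 (edgeR adjusted p = 0.000182) and −0.89 ± 0.18 (edgeR adjusted p = 0.00468). Pdk3, a pyruvate dehydrogenase kinase (ENSMUSG00000035232, GRCm39 chromosome X, 92808213 to 92875807), had 1.80, 2.28, 2.75, 2.32 and 1.65 CPM in healthy, 9.31, 8.29, 5.68, 11.5 and 4.08 CPM in CIA and 2.86, 3.19, 2.86, 2.54 and 3.95 CPM in CIA+F20 libraries. Here too the CIA libraries lay above all others, with 1.84 ± 0.25 (edgeR adjusted p = 0.000256) and −1.33 ± 0.25 (edgeR adjusted p = 0.0037). Me2, a mitochondrial malic enzyme, had 1.34 ± 0.28 and −0.86 ± 0.27, and the cytosolic isocitrate dehydrogenase Idh1 had 0.74 ± 0.21 and did not pass with F20 (−0.24 ± 0.21, edgeR adjusted p = 0.377).

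Levels per length, in CPM per kilobase of the annotated canonical transcript, set the genes on one scale. In healthy libraries Fabp3 had 837 and Mdh2 801 CPM per kilobase, followed by Mdh1 with 460, Cs with 412 and Idh2 with 406. Cpt1b with 2.38 and Etfb with 11.6 were the lowest. These 2 values are uncertain: 89.8% of the bases of the canonical Cpt1b transcript are shared, on the same strand, with the annotated gene Gm44502, and 69.1% of those of Etfb with Etfbl, in GENCODE release M39. How the authors counted reads that lie in 2 genes is not given in the sources used here. Gm44502 had 1 read and Etfbl 8 reads in all 15 libraries together, against 2418 for Cpt1b and 3825 for Etfb. Fabp3, with 66.5%, and Hadha, with 53.8%, share bases with genes of the opposite strand, and the median of the 40 genes was 2.19%.

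The start regions of these genes, whose RNA moved together, were searched for the binding letters of a pair of factors known to act on mitochondrial genes. RefSeq promoter sequences of mouse build GRCm38.p6, 300 bases each around the gene start, were given for 36 of the 40 genes and not for Cpt1b, Decr1, Acaa2 and Idh3a. The element TCAAGGTCA, bound by oestrogen-related receptors, was found on either strand in 0 of the 36 and in the promoters of 0.466% of 27025 genes. The core GCGCATGC of the NRF1 site was found in 4 of the 36 (11.1%), against 3.05% of all genes with a promoter. The 4 stretches of 60 bases are shown 5′ to 3′ on the strand of the gene because they are the members that hold the letters, with the match in either orientation in capitals.
Acadm, chr3:153944768-153944827, minus strand: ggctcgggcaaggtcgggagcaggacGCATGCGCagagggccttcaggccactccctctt
Etfa, chr9:55512315-55512374, minus strand: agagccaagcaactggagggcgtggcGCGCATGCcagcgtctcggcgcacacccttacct
Etfdh, chr3:79628862-79628921, minus strand: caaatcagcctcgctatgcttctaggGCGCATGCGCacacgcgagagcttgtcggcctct
Ogdh, chr11:6292517-6292576, plus strand: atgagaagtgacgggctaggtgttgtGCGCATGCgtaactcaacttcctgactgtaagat
The Etfdh stretch holds the letters on both strands, overlapping. The match starts 158, 105 and 128 bases before the gene start in Acadm, Etfa and Etfdh and 15 or 36 bases before it in Ogdh, for which 2 starts are listed. In CIA versus healthy these 4 genes had log2 fold changes of −0.97, −0.75, −0.89 and −0.67, within the range of the other members. A match of letters is a description and not a binding site.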

How the data were processed

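Forelimb joint messenger RNA was sequenced in 15 libraries, 5 in each of 3 groups, which were taken from the titles in the labels. Per the submitters' processing notes, the tools were fastp 0.23.2, HISAT2 2.2.1 and featureCounts 2.0.3 and the build was GRCm39. What is not given in the sources used here is the annotation release, the use of strand and the counting of reads that map to several places. The deposited values are the authors' raw read counts per gene, without normalization, in columns that carry the library titles.

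Libraries were scaled by TMM in edgeR 4.0.16 (R 4.3.3). Genes passed filterByExpr with a minimum count of 10, which left 15770 genes. All 3 groups entered 1 fit, and comparisons used edgeR's quasi-likelihood test, with Benjamini-Hochberg adjustment over these genes and a threshold of 0.05. The standard error is the fold change divided by the root of F. The procedure was tested on simulated counts, with 50 genes drawn at random for each fold and changed in CIA. The comparison of CIA with healthy recovered 18% at 1.5-fold, 68% at 2-fold and 82% at 3-fold and at 4-fold. It also called 8 unchanged genes. Small differences were thus often missed. The simulation gave all groups 1 spread per gene, whereas the CIA libraries were more uneven. Depth was 18627303 to 34247317 reads per library. All 30 pairs of libraries within a group differed by more than sampling noise (chi-square per gene at least 22.0).

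The 40 genes, the lists of further pathway genes and of markers, and the pairs of genes were chosen with earlier results of these data known. Genes given per library were that with the lowest p in CIA versus healthy of each step and Cs, Ogdh, Pdha1, Pdk4, Pdk1, Cpt1b, Cd36, Fabp3, Suclg2, Sucla2 and Acadm. Cpt1a, Pdk3, Prg4 and the pairs named in the text were singled out after their values were seen. Pair ratios used log2 CPM with a prior count of 2 and an exact permutation test. Alternatives were DESeq2 1.42.0, other scalings and filters, fits of 2 groups, a replicate block, a muscle covariate and leaving out libraries. Leaving out 2 or 3 CIA libraries at once was chosen after seeing the data.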

Additional observations from a re-analysis of the deposited data

Results flagged for a closer look

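Of 150 groups of 5 libraries examined (40 genes and 10 pair ratios in 3 groups), 7 held a library whose gap to the nearest of the others was large for the range of its group, where chance flags about 5% of groups. Healthy 1 stood above the other healthy libraries in Idh3g, with 498 CPM against 428 to 431, and in Ogdh, with 1440 CPM against 1260 to 1310. CIA 5 stood above the other CIA libraries in Cd36, with 747 CPM against 310 to 404, in Cpt2, with 208 CPM against 72.6 to 95.9, and in Acads, with 144 CPM against 52.2 to 77.1. The log2 ratio Cpt1b/Cpt2 was low in CIA 4, at −6.40 against −4.92 to −4.35, and high in CIA+F20 4, at −4.21 against −4.69 to −4.62; Cpt1b had 25 reads in CIA 4.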

How the results depend on the processing

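Under DESeq2, RLE scaling, scaling without muscle and mitochondrial genes, no filter, at least 50 reads in 5 libraries, a fit of 2 groups and the replicate block, 30 to 37 of the 40 genes fell in CIA and 29 to 37 rose in CIA+F20 versus CIA. Numbers of genes called moved in CIA+F20 versus CIA with a fit of 2 groups (2674, against 4669) and in CIA+F20 versus healthy with DESeq2 (124, against 0). With the muscle covariate, 13 genes of the set fell (all genes called 1876, median −0.38), 9 rose in CIA+F20 versus CIA (332, median 0.45), and the median of CIA+F20 versus healthy was 0.10. Without CIA 1, CIA 2 and CIA 4, all genes called numbered 3112 (median −0.42) and 640 (17 of the set higher, median 0.42). Leaving out each library in turn gave 30 to 39 falls, 30 to 38 rises, medians of −0.98 to −0.68, 0.69 to 0.95 and −0.03 to 0.04, and 6061 to 8051, 2883 to 6215 and 0 to 107 genes called; the 2883 was without CIA 2, 3091 without CIA+F20 4, 107 without healthy 3 and 3 without CIA 3. Of the pair ratios 0 to 5 passed, 5 of them without CIA 5. Signs turned in CIA versus healthy for Pdk2 (0.049) and Echs1 (0.023) with the muscle covariate and for Cpt2 (0.027) and Echs1 (0.037) without CIA 1, 2 and 4, and in CIA+F20 versus CIA for Pdk4 (0.41 with the covariate, 0.36 without CIA 1, 2 and 4, 0.081 without CIA 2 and 5, and −0.63 to 0.069 when each library was left out, the latter without CIA 2); none of these passed before or after, and the cause was not tested. Replicate numbers did not pair libraries: same-numbered libraries correlated from −0.39 to 0.24, and 3 of 15 correlations exceeded 0.1. With the replicate block 33 genes fell and 33 rose. Cpt1b had the fewest reads of the 40 genes, 25 in CIA 4, and its count is uncertain because its transcript overlaps another gene.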
